A study of Rattus norvegicus with 20 samples.

Results

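The clock-controlled output and feedback genes of the isolated renal vasculature were described in male Wistar Kyoto rats exposed to maternal separation, which stands for stress in early life and is written MatSep here, and in controls. The members were 10 genes chosen by symbol: Dbp, Tef, Hlf, Nfil3, Nr1d1, Nr1d2, Bhlhe40, Bhlhe41, Usp2 and Wee1. The array carried 1 transcript for each of 9 of the 10, among 18533 transcripts with 1 gene symbol, and Nr1d2 had no transcript under its own symbol and was not analysed here. RNA of each sample was hybridised to 1 whole-transcript rat array, and 20 arrays formed 4 groups of 5: MatSep P180 (adults at postnatal day 180), control P180, MatSep P10 (neonates at postnatal day 10) and control P10. MatSep pups were taken from the dam each day over a period that included P10, so that the neonates were sampled while separation was still going on and the adults long after it. Controls came from litters that were left undisturbed with the dam. Each group drew on at least 4 litters, but the litter of a sample was not in the labels, so that p-values measure the spread between these samples. Vessels were isolated on a sieve, with a finer mesh for neonates than for adults, so that age and mesh cannot be told apart.

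The members were proposed with the adult MatSep comparison of these data in view, where Dbp, Tef and Usp2 stood near the top. The values of MatSep P180 against control P180 are therefore given as a description, from which no test is read. Counts of members past the threshold there were set in part by that choice and carry no weight. The other comparisons were tested with limma on log2 intensity, with Benjamini-Hochberg adjustment over all 18533 transcripts and a threshold of 0.05. Each comparison of ages shares its adult arrays with the one behind the choice, the MatSep P180 arrays in MatSep rats and the control P180 arrays in control rats. For the genes behind the choice, the age p-values are therefore not free of it. No difference between the arms is read from them. An intensity of one gene is not comparable with that of another gene on these arrays, so each gene is set only against itself.

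In most cells of the body, the transcription factors BMAL1 (Bmal1) and its partners CLOCK (Clock) and NPAS2 (Npas2) drive genes. They act through a DNA site called the E-box, and the PER and CRY proteins made from their targets later repress them. The same cycle drives output genes. Among these are the PAR bZIP transcription factors DBP, TEF and HLF, which activate genes through a site called the D-box, and NFIL3, a repressor that binds the same site. Feedback is closed by NR1D1 and NR1D2, nuclear receptors that repress Bmal1, and by BHLHE40 and BHLHE41, which repress at E-boxes. In mammals the transcripts of Dbp and of the Per genes are abundant at a time of day when Bmal1 and Npas2 transcripts are low. Clocks of this kind run in kidney and in vessel wall, and in rodents they gain their full amplitude only after birth. The time of day at which kidneys were taken was not given in the sources used here for any sample.

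Promoter sequences are shown for the members that hold an E-box close to the start of transcription, and for Ciart and Bmal1, which were the furthest from controls in each direction among the core clock genes of adult MatSep vessels. The windows are the 250 bases before the annotated start, from RefSeq with the build GRCr8, read 5′ to 3′ on the strand of the gene. Capitals mark the E-box CACGTG, which is its own reverse complement, and in Bmal1 the ROR element TAGGTCA, the site at which NR1D1 and its ROR competitors bind.
Tef promoter, chr7:115206577-115206826, plus strand: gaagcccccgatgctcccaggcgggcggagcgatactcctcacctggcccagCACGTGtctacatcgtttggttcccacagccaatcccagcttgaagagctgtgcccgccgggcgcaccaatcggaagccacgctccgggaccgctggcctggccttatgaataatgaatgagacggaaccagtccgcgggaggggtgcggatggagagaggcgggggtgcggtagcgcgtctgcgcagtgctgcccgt
Nr1d1 promoter, chr10:84229455-84229704, minus strand: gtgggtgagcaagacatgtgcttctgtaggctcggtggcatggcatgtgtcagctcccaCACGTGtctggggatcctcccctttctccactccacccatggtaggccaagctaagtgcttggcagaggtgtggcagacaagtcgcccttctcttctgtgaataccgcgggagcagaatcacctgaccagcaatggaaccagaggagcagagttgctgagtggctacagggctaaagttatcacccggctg
Bhlhe40 promoter, chr4:143174200-143174449, plus strand: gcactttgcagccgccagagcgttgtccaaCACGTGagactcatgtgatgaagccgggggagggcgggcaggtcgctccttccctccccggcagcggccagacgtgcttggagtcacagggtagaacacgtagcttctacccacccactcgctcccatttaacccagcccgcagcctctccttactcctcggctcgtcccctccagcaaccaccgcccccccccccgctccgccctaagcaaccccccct
Bhlhe41 promoter, chr4:180569356-180569605, minus strand: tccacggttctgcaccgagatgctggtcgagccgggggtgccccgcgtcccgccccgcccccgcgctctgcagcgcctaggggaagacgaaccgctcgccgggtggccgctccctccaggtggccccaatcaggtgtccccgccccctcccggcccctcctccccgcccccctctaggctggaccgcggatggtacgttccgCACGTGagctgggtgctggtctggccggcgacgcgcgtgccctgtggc
Ciart promoter, chr2:186112247-186112496, minus strand: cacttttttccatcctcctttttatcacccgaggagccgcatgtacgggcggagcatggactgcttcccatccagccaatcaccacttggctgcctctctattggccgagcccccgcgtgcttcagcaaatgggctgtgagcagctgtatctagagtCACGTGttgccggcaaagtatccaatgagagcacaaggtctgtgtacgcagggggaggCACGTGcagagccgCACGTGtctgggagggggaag
Bmal1 promoter, chr1:176766078-176766327, plus strand: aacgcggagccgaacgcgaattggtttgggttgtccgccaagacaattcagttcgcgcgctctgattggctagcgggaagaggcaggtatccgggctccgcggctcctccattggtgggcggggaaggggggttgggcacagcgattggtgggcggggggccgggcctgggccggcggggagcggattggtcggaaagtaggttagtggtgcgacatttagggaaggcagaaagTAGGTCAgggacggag
RefSeq windows were at hand for 8 of the 10 members, and 4 of these members held CACGTG. Its first base lay 198 bases before the start in Tef, 191 before one of the annotated starts of Nr1d1, 220 before that of Bhlhe40 and 48 before that of Bhlhe41. Ciart held CACGTG at 93, 35 and 21 bases before its start. Over all 33469 windows of this length, 5.59% held CACGTG. The windows of Dbp, Nfil3, Nr1d2 and Usp2 held none of the motifs searched. Besides CACGTG, the search covered the variant E-box CACGTT, which 4.07% of windows held. It also covered the D-box, written TTATGTAA or TTACGTAA and held by 0.932% of windows, and the element TAGGTCA, held by 2.26%. Both strands were read, and no matches overlapped in the printed windows. The other start of Nr1d1 held the reverse complement of CACGTT 174 bases before it.

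One control array stood apart from the other adult controls when the values were looked at. On control P180 replicate 4, Dbp, Tef, Bhlhe41, Usp2 and Wee1 were at or near the levels of the adult MatSep arrays, while the other 4 adult controls were lower. Hlf followed in part: it read 6.23, above the other adult controls but below every adult MatSep array (lowest 6.39). Nfil3, Bhlhe40 and Nr1d1 did not follow. Nfil3 read 5.67, the highest of the adult controls and above every adult MatSep array. Bhlhe40 (10.71) and Nr1d1 (10.50) lay within the range of the other adult controls. On the same array Bmal1 and Npas2 were at the levels of the adult MatSep arrays as well. Nothing in the labels sets this sample apart, and it was kept as a control. Many of the results that it moved are given with and without it. The balance of clock genes on each array and the sizes of the difference between the ages are given only with it.

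The PAR bZIP activators were higher in adults than in neonates, in both arms. Dbp was 10.68 ± 0.52 in control P180 vessels and 9.99 ± 0.07 in control P10 vessels (log2 intensity, mean ± SD, n = 5 each), 1.61-fold higher (log2 0.68, SE 0.16, adjusted p = 0.00178). Among MatSep rats it was 11.63 ± 0.15 at P180 and 10.06 ± 0.09 at P10 (n = 5 each), 2.97-fold higher (log2 1.57, SE 0.16, adjusted p = 1.08e-07). The adult and neonatal MatSep arrays were far apart, whereas 1 adult control array was as low as the control neonates. Tef rose 1.50-fold with age in control rats (log2 0.58, SE 0.12, adjusted p = 0.000325) and 2.17-fold in MatSep rats (log2 1.12, SE 0.12, adjusted p = 1.05e-07). Hlf rose 1.51-fold in control rats (log2 0.60, SE 0.13, adjusted p = 0.00108) and 2.79-fold in MatSep rats (log2 1.48, SE 0.13, adjusted p = 1.48e-08). Hlf was dim in neonates, at 5.09 ± 0.11 in MatSep P10 and 5.06 ± 0.22 in control P10 vessels, near the log2 intensity of 5 under which 3524 of the tested transcripts averaged. In a bulk sample, more cells of a type and more RNA per cell cannot be told apart, here and in what follows.

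Nfil3, the D-box repressor, moved the other way. It was 5.60 ± 0.07 in control P180 and 6.03 ± 0.24 in control P10 vessels, 1.35-fold lower in adults (log2 −0.43, SE 0.11, adjusted p = 0.00421). In MatSep rats it was 5.27 ± 0.23 at P180 and 6.04 ± 0.16 at P10, 1.71-fold lower in adults (log2 −0.77, SE 0.11, adjusted p = 1.14e-05). All adult values lay under all neonatal values in both arms. Nfil3 was dim in MatSep adults, with arrays down to 5.04, near the log2 intensity of 5.

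Nr1d1 showed the largest age difference among the members. The control P180 arrays read 10.28, 10.47, 10.68, 10.50 and 10.28, against 7.82, 8.07, 8.47, 8.09 and 8.26 in control P10. The MatSep P180 arrays read 10.45, 10.57, 10.82, 10.62 and 10.59, against 8.46, 8.28, 8.54, 8.09 and 8.36 in MatSep P10. The lowest adult array was well above the highest neonatal array. Nr1d1 rose 4.92-fold in control rats (log2 2.30, SE 0.11, adjusted p = 8.69e-13) and 4.80-fold in MatSep rats (log2 2.26, SE 0.11, adjusted p = 1.28e-12). By p-value it ranked 126 among all transcripts in control rats and 117 in MatSep rats.

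The bHLH repressors differed from each other. Bhlhe41 (Dec2) rose with age 2.08-fold in control rats (log2 1.06, SE 0.15, adjusted p = 5.52e-06) and 2.64-fold in MatSep rats (log2 1.40, SE 0.15, adjusted p = 1.15e-07). Adults and neonates did not overlap in either arm. Bhlhe40 (Dec1) was 10.67 ± 0.08 in control P180 and 10.69 ± 0.18 in control P10 vessels, a log2 difference of −0.02 with a 95% interval of −0.20 to 0.16 (adjusted p = 0.857). In MatSep rats Bhlhe40 rose 1.24-fold (log2 0.31, SE 0.09, adjusted p = 0.00533), to 10.85 ± 0.09 at P180, against 10.54 ± 0.17 at P10.

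Usp2, a deubiquitinase whose transcript follows the clock in many tissues of mice and rats, rose with age in MatSep rats and did not pass the test in control rats. It was 9.18 ± 0.30 in MatSep P180 and 8.29 ± 0.10 in MatSep P10 vessels, 1.85-fold higher (log2 0.89, SE 0.19, adjusted p = 0.000566). These MatSep P180 arrays are also in the adult comparison where Usp2 stood near the top, so this p-value is not free of the choice. Control P180 vessels read 7.74, 7.81, 8.13, 9.11 and 8.12, against 8.48, 8.45, 8.27, 8.28 and 8.50 in control P10. Replicate 4 lay above every neonatal control, and the other 4 adult controls lay below every neonatal array of either arm. The log2 difference was −0.21 (SE 0.19, adjusted p = 0.37) with that array, and −0.45 (adjusted p = 0.00692) without it. Wee1, the kinase that holds back entry into mitosis, fell 1.44-fold with age in control rats (log2 −0.53, SE 0.10, adjusted p = 0.000183). Its log2 difference was −0.61 without control P180 replicate 4. In MatSep rats Wee1 was 8.78 ± 0.16 at P180 and 8.97 ± 0.11 at P10 (log2 −0.18, SE 0.10, adjusted p = 0.125).

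Of the 9 members measured, 5 rose and 2 fell with age in control rats, where 45.3% of all transcripts passed, 24.7% higher and 20.6% lower. In MatSep rats 7 rose and 1 fell, where 49.6% passed, 27.4% higher and 22.2% lower. Adult and neonatal arrays did not overlap for 4 members in control rats, 3 higher and 1 lower, as was so for 31.3% of all transcripts (16.3% higher and 15% lower). In MatSep rats they did not overlap for 8 members, all but Wee1, as was so for 33.9% of transcripts (17.1% higher and 16.7% lower). The median log2 difference of the members was 0.58 in control rats, beside 0.05 over all transcripts, and 1.12 in MatSep rats, beside 0.07. Leaving out control P180 replicate 4 lowered the control differences of Dbp to 0.51, Tef to 0.45, Hlf to 0.46 and Bhlhe41 to 0.90, and all of them still passed. Wee1 in MatSep rats passed once MatSep P180 replicate 1 was left out (log2 −0.25, adjusted p = 0.0461). Markers of other cells moved with age too. Fibroblast markers fell for 7 of 7 genes in MatSep rats, while in control rats 6 fell and 1 rose. Their summed log2 intensity spanned 12.58 to 13.26 in MatSep P180, 12.73 to 13.31 in control P180, 14.70 to 15.21 in MatSep P10 and 14.07 to 14.78 in control P10. Macrophage markers rose for 6 of 7 genes in each arm, with sums of 11.04 to 11.38 in MatSep P180, 11.16 to 11.49 in control P180, 9.50 to 10.03 in MatSep P10 and 9.09 to 9.65 in control P10. Proximal tubule markers rose for 4 of 7 genes in each arm, with sums of 14.84 to 15.20, 14.81 to 15.20, 14.32 to 14.86 and 14.47 to 14.84 in the same order of groups. Adipocyte markers fell for 4 of 5 genes in MatSep rats, and in control rats 1 rose. Their sums were 9.64 to 10.08 in MatSep P180, 9.47 to 10.82 in control P180, 10.64 to 12.33 in MatSep P10 and 8.10 to 12.05 in control P10. The part of these cells in the age differences was not tested. Distal tubule markers fell for 4 of 7 genes and rose for 1 in control rats, and 1 fell and 1 rose in MatSep rats. Vessel markers were present in every group, with sums of 13.26 to 14.07 over 10 endothelial genes and 12.72 to 14.75 over 9 genes of smooth muscle and pericytes, and they too moved with age. Smooth muscle and pericyte markers rose for 5 genes in control rats, and 4 rose and 1 fell in MatSep rats. Endothelial markers rose for 2 and fell for 3 in each arm.

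**Figure D1:**
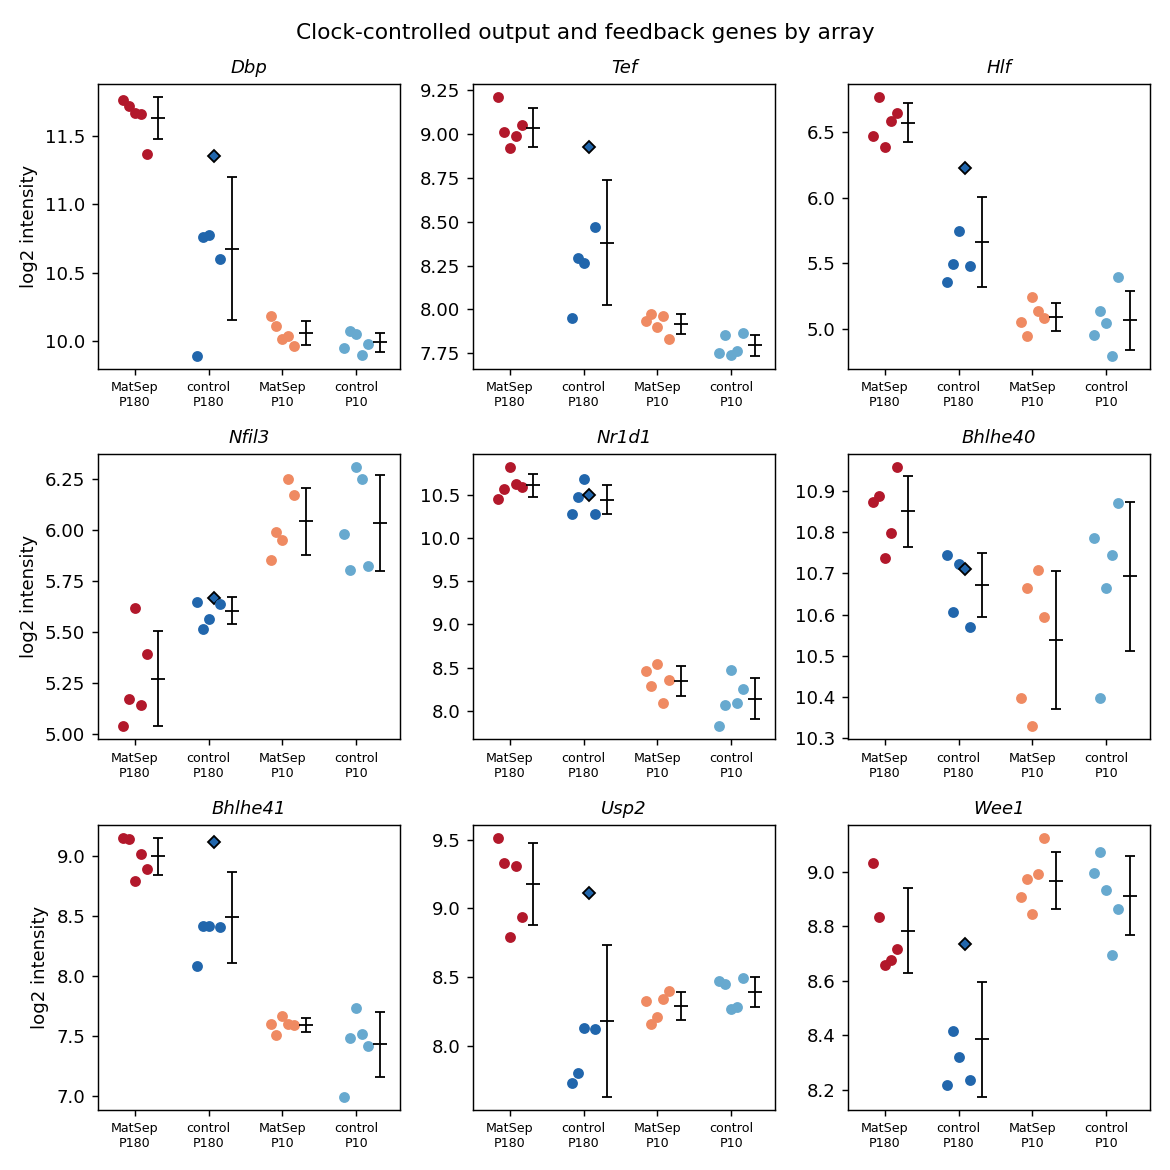
Log2 intensity of the 9 measured members on each array, by group, with the mean ± SD beside the points (n = 5 arrays per group). The outlined diamond is control P180 replicate 4, which sits with the MatSep P180 arrays for Bhlhe41 and Usp2 and apart from the other controls for Dbp, Tef and Hlf.

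MatSep neonates were compared with control neonates to see whether the output genes differed while separation was under way. None of the 9 members passed, with adjusted p between 0.563 and 0.991 in limma, and none had an unadjusted p under 0.05, beside 9.67% of all transcripts. After adjustment 0.0162% of transcripts passed. Dbp read 10.19, 10.11, 10.02, 10.04 and 9.96 in MatSep P10, against 9.95, 10.08, 10.05, 9.90 and 9.98 in control P10. The groups overlapped, with 2 of the MatSep arrays above every control. The log2 difference was 0.07 with a 95% interval of −0.27 to 0.41. The interval was −0.12 to 0.37 for Tef, −0.26 to 0.31 for Hlf, −0.23 to 0.25 for Nfil3 and −0.03 to 0.44 for Nr1d1. It was −0.34 to 0.03 for Bhlhe40, −0.15 to 0.47 for Bhlhe41, −0.50 to 0.29 for Usp2 and −0.15 to 0.26 for Wee1. The limits farthest from 0 were −0.50 for Usp2 and 0.47 for Bhlhe41. Some markers of other cells had 1 sign in neonates, and none passed: adipocyte markers were higher in MatSep P10 for 5 of 5 genes, with a summed log2 intensity of 10.64 to 12.33 in MatSep P10 and 8.10 to 12.05 in control P10, and fibroblast markers for 7 of 7, with the sums given above. Smooth muscle markers were higher for 9 of 9 genes, with sums of 13.27 to 14.16 in MatSep P10 and 12.72 to 14.08 in control P10, and macrophage markers for 7 of 7. Their part in the neonatal values was not tested.

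In adults, the output genes were set side by side in MatSep and control vessels. The time of day of collection was not given for any sample, and its part in the adult values was not tested. Dbp read 11.76, 11.72, 11.66, 11.66 and 11.37 in MatSep P180, against 9.89, 10.76, 10.78, 11.35 and 10.60 in control P180. Every MatSep array was above every control array, though MatSep replicate 5 and control replicate 4 almost met. The log2 difference was 0.96 (SE 0.16), or 1.94-fold. Hlf read 6.47, 6.77, 6.39, 6.58 and 6.65 in MatSep P180, against 5.36, 5.49, 5.75, 6.23 and 5.48 in control P180, and these groups did not overlap either. Its log2 difference was 0.91 (SE 0.13), or 1.88-fold. Dbp and Hlf were the members whose groups stood apart, both with MatSep higher, where 0.815% of all transcripts did so in either direction and 0.345% with MatSep higher. Tef read 9.21, 9.01, 8.92, 8.99 and 9.05 in MatSep P180, against 7.95, 8.29, 8.26, 8.93 and 8.47 in control P180, and the groups met at control replicate 4. Its log2 difference was 0.66 (SE 0.12), or 1.58-fold. Nfil3 was lower in MatSep vessels, with a log2 difference of −0.34 (SE 0.11), and the groups overlapped because MatSep replicate 3 read 5.62.

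Among the feedback genes the adult differences were smaller than those of Dbp, Hlf and Tef. Bhlhe41 read 9.15, 9.14, 8.79, 9.01 and 8.89 in MatSep P180, against 8.08, 8.42, 8.42, 9.12 and 8.40 in control P180. The 4 controls other than replicate 4 all lay below the MatSep arrays, and replicate 4 lay above 3 of them. The log2 difference was 0.51 (SE 0.15). Nr1d1 differed by 0.17 (SE 0.11), with an interval of −0.07 to 0.40, and its groups overlapped widely. Bhlhe40 differed by 0.18 (SE 0.09), with 10.74 to 10.96 in MatSep P180 and 10.57 to 10.75 in control P180.

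Usp2 had the largest adult difference of the members. It read 9.51, 9.33, 8.80, 9.31 and 8.94 in MatSep P180, against 7.74, 7.81, 8.13, 9.11 and 8.12 in control P180. The log2 difference was 0.99 (SE 0.19), or 1.99-fold, and the groups overlapped through control replicate 4 alone. Wee1 was 0.40 higher on the log2 scale (SE 0.10), with 8.66 to 9.03 in MatSep P180 and 8.22 to 8.74 in control P180, where 8.74 again was replicate 4. In all, 8 of the 9 members were higher in MatSep P180 and their median log2 difference was 0.51, beside −0.00 over all transcripts, but the members had been chosen from this comparison. For the record, 3 members (Dbp, Tef and Hlf, all with MatSep higher) lay past the adjusted threshold, beside 0.0432% of all transcripts and 0.027% with MatSep higher. Of the 9, Tef was just inside it and Usp2 just outside. The number spanned 0 to 6 as single arrays were left out: 6 without control replicate 4, 2 without control replicate 1 or MatSep replicate 5, 1 without control replicate 3 or 5 or MatSep replicate 1 or 4, and 0 without replicate 2 of either group. Nothing is read from these counts, since the members came from this comparison.

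**Figure D2:**
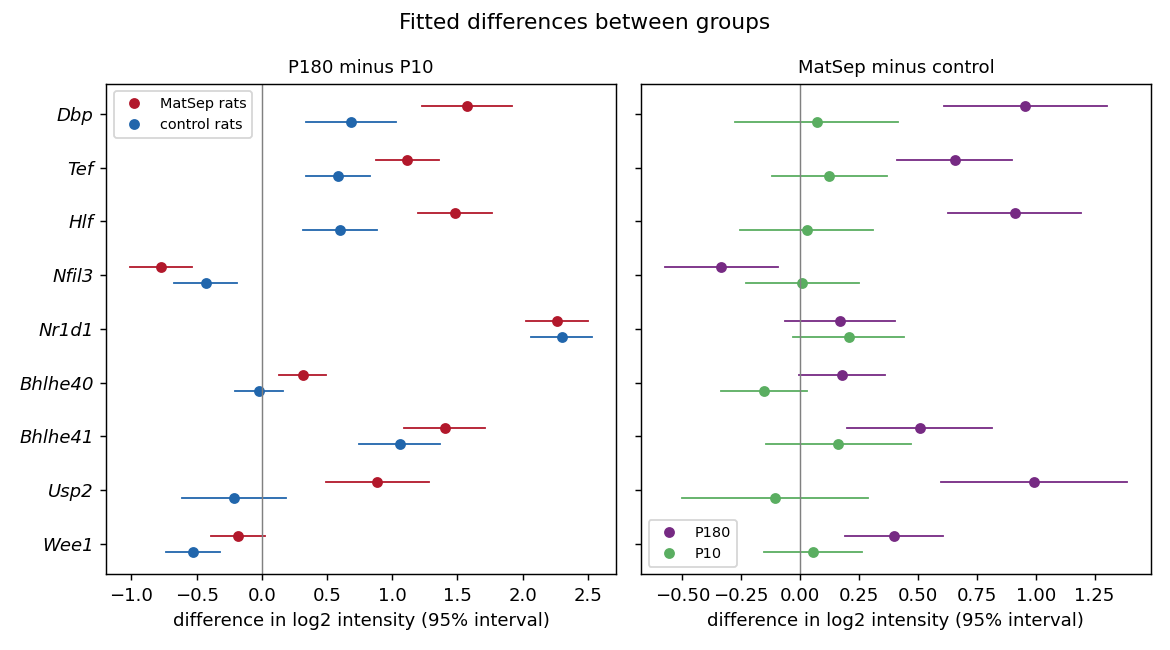
Fitted differences in log2 intensity with 95% intervals for each member: P180 minus P10 on the left, for MatSep rats and control rats, and MatSep minus control on the right, at P180 and at P10. Nr1d1 has age differences of 2.26 in MatSep rats and 2.30 in control rats, and at P10 every interval of the right panel includes 0.

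The samples carry numbers that fall in runs, and each run of adults held both groups. In the run of sample numbers 1 to 6, with 3 arrays of each group, Dbp was 1.24 higher in MatSep P180 on the log2 scale, and in the run 8 to 11, with 2 of each, it was 0.54 higher. Hlf was 1.01 and 0.76 higher in these runs, Tef 0.88 and 0.32, Usp2 1.32 and 0.50, and Bhlhe41 0.72 and 0.19. Wee1 was 0.52 and 0.21 higher, Nr1d1 0.14 and 0.22, and Bhlhe40 0.14 and 0.24, while Nfil3 differed by −0.30 and −0.39. The signs were the same in both runs for all 9 members. The members were proposed with this adult comparison in view, so the shared sign is a description and not a check of it. Control replicate 4 belongs to the run 8 to 11, where the differences of Dbp, Hlf, Tef, Usp2, Bhlhe41 and Wee1 were the smaller ones. Without control replicate 4, the log2 differences over all adults were 1.13 for Dbp, 0.79 for Tef, 1.05 for Hlf, 0.66 for Bhlhe41, 1.23 for Usp2 and 0.49 for Wee1. They were 0.18 for Nr1d1, 0.19 for Bhlhe40 and −0.32 for Nfil3, close to the values with it. Without control replicate 1, the adult control lowest for Dbp, Tef, Hlf, Bhlhe41, Usp2 and Wee1, those of Dbp, Tef, Hlf and Usp2 were 0.76, 0.55, 0.84 and 0.88.

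The difference between MatSep and control in adults, minus that in neonates, repeats the adult comparison and is likewise a description. It was 1.10 for Usp2 (SE 0.26), 0.89 for Dbp (SE 0.23), 0.88 for Hlf (SE 0.19) and 0.53 for Tef (SE 0.16) on the log2 scale. For Nr1d1 it was −0.04 (SE 0.16). Nothing is read from these values beyond their size.

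The genes of the core clock were listed to set the members beside the machinery that drives them. The list held 17 genes, of which 14 were measured. It too was chosen with earlier results of these data known, so its age p-values are not free of that choice. No difference between the arms is read from them. With age, 5 rose and 5 fell in control rats, where 45.3% of all transcripts passed, and 6 rose and 5 fell in MatSep rats, where 49.6% passed. Bmal1 fell in MatSep rats, to 7.91 ± 0.19 at P180, against 8.53 ± 0.09 at P10 (log2 −0.62, SE 0.16, adjusted p = 0.003). In control rats it rose, to 8.84 ± 0.49 at P180, against 8.42 ± 0.10 at P10 (log2 0.41, SE 0.16, adjusted p = 0.0405). This control call held in 10 of 21 alternatives and was lost when any adult control other than replicate 4 was left out, with log2 differences of 0.27 to 0.61 over the arrays left out, the highest without replicate 4. Npas2 rose in control rats (log2 0.60, SE 0.14, adjusted p = 0.00132) and in MatSep rats differed by −0.17 (SE 0.14, adjusted p = 0.3). Clock rose in control rats (log2 0.40, SE 0.08, adjusted p = 0.000361) and in MatSep rats differed by 0.02 (SE 0.08, adjusted p = 0.839). The control differences were 0.75 for Npas2 and 0.48 for Clock without control P180 replicate 4. Ciart, a repressor of the BMAL1 complex, rose 2.11-fold in control rats (log2 1.08, SE 0.30, adjusted p = 0.0062) and 7.64-fold in MatSep rats (log2 2.93, SE 0.30, adjusted p = 9.94e-08). Without control P180 replicate 4 its control difference was 0.71 (adjusted p = 0.00841). Ciart was dim in neonates, at 5.08 ± 0.25 in MatSep P10 and 5.18 ± 0.25 in control P10 vessels. Its fold changes with age therefore start near the log2 intensity of 5, as those of Hlf do. Per1 rose in MatSep rats (log2 1.03, SE 0.26, adjusted p = 0.00299), as did Per2 (log2 1.10, SE 0.19, adjusted p = 8.21e-05), and in control rats they differed by 0.09 (adjusted p = 0.811) and 0.34 (adjusted p = 0.156), or by −0.21 and 0.13 without control P180 replicate 4. Per3 fell in control rats (log2 −0.39, SE 0.15, adjusted p = 0.0426), a call that held in 10 of 21 alternatives, and differed by 0.12 in MatSep rats (adjusted p = 0.522). Its control difference was −0.57 without control P180 replicate 4. Cry1 fell in both, by 0.70 on the log2 scale in control rats (adjusted p = 2.04e-05) and by 0.62 in MatSep rats (adjusted p = 7.59e-05).

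At P10 none of the 14 core clock genes passed for MatSep against control in limma (adjusted p 0.489 to 0.979), and 1 had an unadjusted p under 0.05. This was Clock, with 10.22 to 10.37 in MatSep P10 and 10.08 to 10.20 in control P10. Its groups did not overlap, as was so for 1.67% of all transcripts, and the log2 difference was 0.17 (SE 0.08, adjusted p = 0.489). At P180 the core clock values are again a description. Bmal1 read 7.76, 7.90, 8.19, 7.72 and 7.96 in MatSep P180, against 9.40, 8.94, 8.97, 8.04 and 8.83 in control P180. The control arrays other than replicate 4 were all above the MatSep arrays, and also above all 10 neonatal arrays, which read 8.32 to 8.66. The log2 difference of Bmal1 was −0.93 (SE 0.16), that of Npas2 −0.71 (SE 0.14) and that of Clock −0.20 (SE 0.08). Ciart read 8.12, 7.98, 7.50, 8.40 and 8.08 in MatSep P180, against 5.49, 5.75, 5.69, 7.76 and 6.62 in control P180. It had the largest difference of the list, 1.75 (SE 0.30), or 3.37-fold. Per1, Per2 and Per3 were 0.90, 0.72 and 0.49 higher, and Cry1 0.20 higher. Without control replicate 4 the differences were −1.13 for Bmal1, −0.87 for Npas2, 2.13 for Ciart, 1.20 for Per1, 0.93 for Per2 and 0.66 for Per3.

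**Figure D3:**
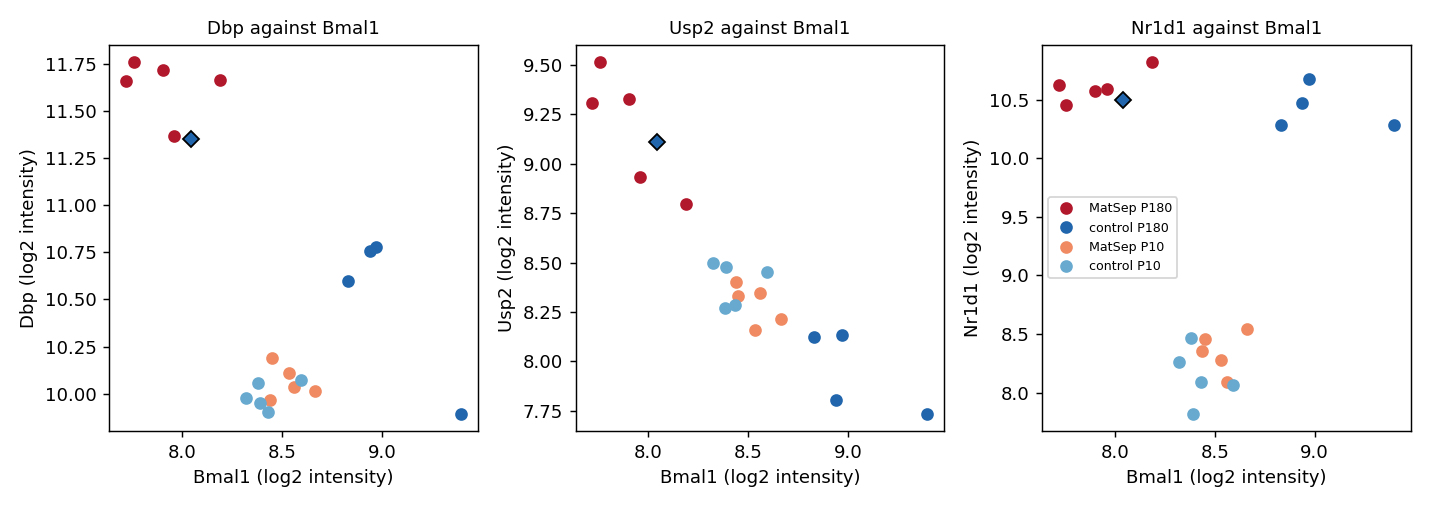
Log2 intensity of Dbp, Usp2 and Nr1d1 (vertical axes) against Bmal1 (horizontal axes) on each of the 20 arrays, coloured by group. The outlined diamond, control P180 replicate 4, lies among the MatSep P180 arrays for Usp2 and beside their lowest for Dbp (11.37 on MatSep replicate 5 and 11.35 on the diamond), and Nr1d1 divides the arrays by age.

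Each array was then placed by the balance of its clock genes. For each gene the deviation from the mean of the controls of that age was taken. The mean over 7 genes of the Dbp side (Dbp, Tef, Hlf, Nr1d1, Usp2, Wee1 and Bhlhe41) minus the mean over 5 genes of the Bmal1 side (Bmal1, Npas2, Clock, Nfil3 and Cry1) gave 1 value per array, in log2 units. It was 1.22, 1.12, 0.76, 1.22 and 0.94 in MatSep P180, against −0.62, −0.10, −0.06, 0.85 and −0.07 in control P180. All MatSep arrays were high, 3 controls were near 0, control replicate 1 was low, and control replicate 4 was above the lowest MatSep array. The Dbp side holds members proposed with this adult comparison in view, so high MatSep P180 values were set in part by that choice. The control mean that marks 0 includes replicate 4. Cry1 was placed on the Bmal1 side although its log2 difference in MatSep P180 was 0.20. It was 0.08, −0.07, −0.04, −0.06 and 0.01 in MatSep P10, against −0.12, 0.01, 0.03, −0.13 and 0.21 in control P10. The whole neonatal spread was smaller than the gap between control replicate 4 and the next adult control.

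**Figure D4:**
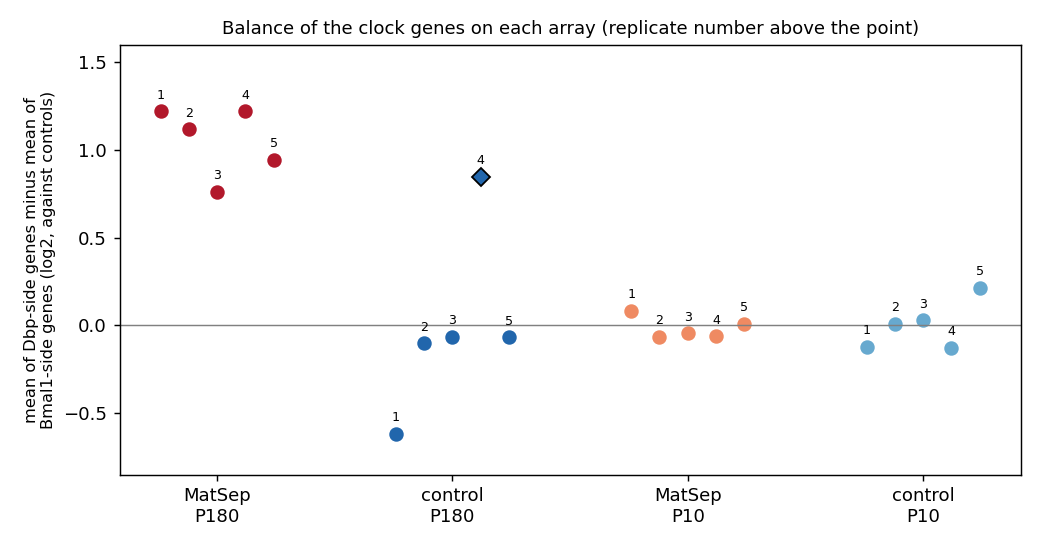
Mean deviation of 7 Dbp-side genes minus that of 5 Bmal1-side genes on each array, in log2 units against the mean of the controls of the same age, by group, with the replicate number above each point. MatSep P180 arrays lie between 0.76 and 1.22, control P180 arrays between −0.62 and 0.85 with replicate 4 as the highest, and all neonatal arrays between −0.13 and 0.21. The Dbp-side genes are members proposed with the adult comparison in view, so the adult difference is a description.

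The spread between arrays of 1 group differed by age as well. Within groups, Dbp had an SD of 0.39 at P180 and 0.08 at P10, larger than that of 97.8% of transcripts in adults and than that of 14.1% in neonates. Usp2 had 0.44 and 0.10 (98.9% and 29.3%), Tef 0.26 and 0.06 (88.7% and 4.35%), and Bhlhe41 0.29 and 0.20 (92.1% and 74.5%). Nr1d1 did not follow this, with 0.15 at P180 and 0.21 at P10, nor did Bhlhe40, with 0.08 and 0.17, or Nfil3, with 0.17 and 0.20. Over all transcripts the median SD was 0.15 at P180 and 0.14 at P10. The SD of Dbp was 0.15 in MatSep adults and 0.52 in control adults. The adult spread of Dbp, Usp2, Tef, Hlf, Bhlhe41 and Wee1 rested in part on control replicate 4. Without it, the adult SD was 0.30 for Dbp (93.6% of transcripts were below it), 0.26 for Usp2 (89.5%), 0.16 for Tef (56.7%), 0.16 for Hlf (53.2%) and 0.16 for Bhlhe41 (55.1%), where the median over all transcripts was 0.15. Dbp and Usp2 thus stayed high in spread among adults, and Tef, Hlf and Bhlhe41 were near the median.

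**Figure D5:**
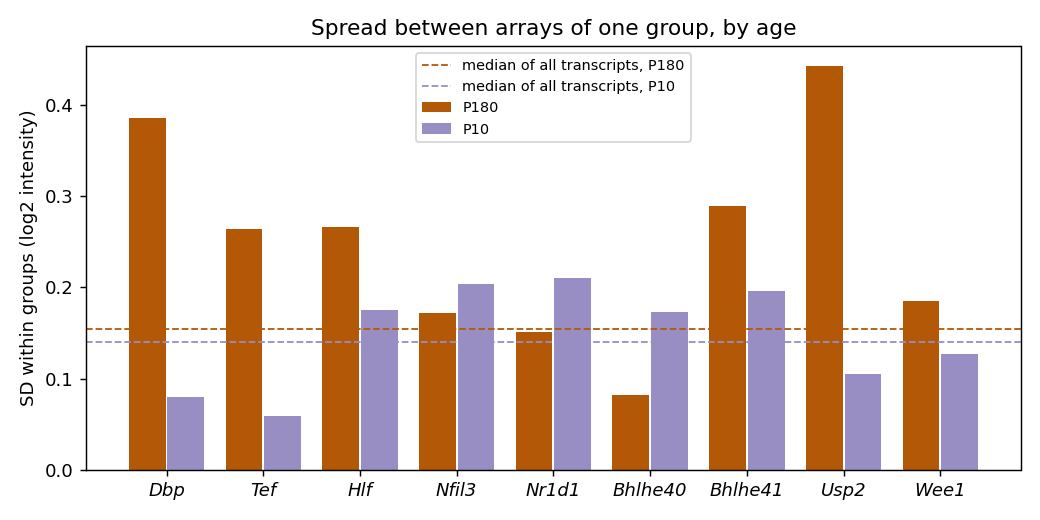
SD within groups of each member (bars, log2 intensity, pooled over the MatSep and control groups of an age, 5 arrays each), at P180 and P10, with dashed lines at the median of all transcripts. Dbp and Usp2 reach 0.39 and 0.44 at P180 and have 0.08 and 0.10 at P10, while Nr1d1, Nfil3 and Bhlhe40 have the larger value at P10 (control P180 replicate 4 included).

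Deviations from the group means show which transcripts varied with Dbp from array to array, as a description over 10 arrays of an age. At P180, Bhlhe41 had r = 0.88 with Dbp, Tef 0.85, Usp2 0.78, and both Wee1 and Hlf 0.74. Nr1d1 had 0.41, Nfil3 −0.13 and Bhlhe40 −0.20. Per1 had 0.92 and Per2 0.81, and Bmal1 and Npas2 had −0.85 and −0.86. Usp2 and Bhlhe41 had 0.95 with each other. Without control replicate 4, over 9 arrays, r with Dbp was 0.78 for Bhlhe41, 0.68 for Tef, 0.50 for Usp2, 0.46 for Wee1 and 0.39 for Hlf, and 0.83 for Per1, −0.70 for Bmal1 and −0.71 for Npas2. All of these were nearer to 0 than with it, and Usp2 and Bhlhe41 had 0.84 with each other. The other members were farther from 0 without it, with 0.43 for Nr1d1, −0.32 for Nfil3 and −0.47 for Bhlhe40. With all 10 arrays, among 15008 other transcripts with a mean log2 intensity of 5 or more, the highest r with Dbp were those of Alkbh1 (0.96), Klf9 (0.94), Or51a7b (0.94), Samt1 (0.93) and Gmcl1 (0.93), and the lowest those of Trib1 (−0.94), Tnnt3 (−0.93), Capn13 (−0.92), Cbx8 (−0.91) and Ackr3 (−0.91). Bhlhe41 ranked 13 and Tef 25 from the top. At P10 no member had more than 0.49, the value of Tef, and Bmal1 had 0.09. The neonatal extremes were Tsku (0.96), Fam83h (0.92), Ubtd1 (0.92), Mettl7a (0.90) and Zfp324 (0.90) at the top, and Exosc8 (−0.98), Alkal2 (−0.97), Nr5a1 (−0.97), Ern2 (−0.95) and Alpg (−0.94) at the bottom. The arrays of an age share their normalization, and control replicates 1 and 4 are the ends of the adult range of Dbp deviations.

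Other clock-driven genes were listed as well. Of 12 such genes 10 were measured, of which 5 rose and none fell in control rats, and 4 rose and 1 fell in MatSep rats. These shares are near those of all transcripts, 45.3% in control rats and 49.6% in MatSep rats. Nampt, the rate-limiting enzyme of NAD salvage, rose by 0.86 on the log2 scale in control rats (adjusted p = 4.23e-06) and by 0.91 in MatSep rats (adjusted p = 1.81e-06). Noct, a clock-driven phosphatase, rose by 0.67 in control rats (adjusted p = 0.000916) and by 0.88 in MatSep rats (adjusted p = 5.2e-05). Slc9a3, a sodium-proton exchanger, rose by 0.54 in control rats (adjusted p = 0.00187) and by 0.76 in MatSep rats (adjusted p = 6.23e-05). Sgk1, a kinase of salt transport, rose by 0.41 in control rats (adjusted p = 0.00131) and differed by 0.23 in MatSep rats (adjusted p = 0.0505). None of the 10 passed for MatSep against control at P10 (none with an unadjusted p under 0.05) or at P180 (1 with an unadjusted p under 0.05). Genes that respond to glucocorticoids, the adrenal steroids whose level follows the day, were listed since several of them also follow the clock. All 11 were measured, and with age 5 rose and 1 fell in control rats, and 5 rose and 2 fell in MatSep rats, beside the same shares over all transcripts. Klf9 rose by 0.93 in control rats (adjusted p = 3.79e-08) and by 1.01 in MatSep rats (adjusted p = 1.11e-08), and Fkbp5 by 0.97 (adjusted p = 5.39e-05) and 1.10 (adjusted p = 1.13e-05). Dusp1 rose by 0.89 in control rats (adjusted p = 3.38e-06) and by 0.70 in MatSep rats (adjusted p = 5.79e-05). Pdk4, a kinase that turns cells from glucose to fat as fuel, fell by 1.12 on the log2 scale in control rats (adjusted p = 0.000282) and by 2.20 in MatSep rats (adjusted p = 5.66e-08). None of the 11 passed for MatSep against control at either age in limma, where 2 at P10 and 4 at P180 had an unadjusted p under 0.05, as had 9.67% and 5.77% of all transcripts. Without control P180 replicate 4, 1 passed at P180. This was Per1, which is in the core clock list as well. Sgk1 and Cdkn1a are also in the list of other clock-driven genes, so the lists are not separate. On control P180 replicate 4, Zbtb16, which was looked up on this array after its values were seen, read 8.67, against 6.84 to 8.28 in MatSep P180 and 5.70 to 7.31 in the other adult controls. Cell markers did not pass for MatSep in adults: fibroblast markers were lower in MatSep P180 for 7 of 7 genes, with the sums given above, smooth muscle and pericyte markers were lower for 8 of 9, with sums of 14.02 to 14.75 in MatSep P180 and 14.07 to 14.46 in control P180, and distal tubule markers were higher for 5 of 7, with sums of 14.19 to 14.66 in MatSep P180 and 14.39 to 14.49 in control P180. Their part in the adult values was not tested.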

How the data were processed

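The authors hybridised 1 RaGene2.0_st whole-transcript array per sample and deposited the signal intensity of 36685 transcripts on a linear scale, normalized between arrays. RMA and Partek were named in the submitters' processing notes, without versions. A second deposited copy of the intensity values differed by at most 0.005. The deposited tables of the authors' own comparisons hold group means, fold changes and p-values, and were not used. The members and gene lists were chosen with earlier results of these data known.

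Intensities were converted to log2, whose median per array was 6.00 to 6.18. Symbols came from the platform annotation: 18533 transcripts had 1 symbol and were tested, 553 had several, and none was listed for 17599. For 22 of those tested, Hlf among them, the annotation gave the symbol for 2 gene IDs. limma 3.58.1 (R 4.3.3) fitted 1 mean per group to all 20 arrays (16 residual degrees of freedom), with lmFit, eBayes and Benjamini-Hochberg adjustment at 0.05. The fit was tested on simulated data. The 95% intervals are the difference ± its SE in limma times the t value for 16 residual degrees of freedom. Their width is limited by how many arrays there were. Named were all members, 8 core clock genes, the 3 genes of the smallest p in each other list and age comparison, and the 5 highest and 5 lowest correlations with Dbp. The alternatives were the groups compared alone, each array left out, median centring, another quantile normalization, a prior that is robust and follows intensity, weights for arrays, runs of sample numbers or replicate numbers as a block, dim transcripts removed, all transcripts, gene means, and the second copy. Spread and correlations without control P180 replicate 4 were added after seeing the data. Figures were drawn with matplotlib 3.10.9 (Python 3.11.15).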

Additional observations from a re-analysis of the deposited data

Results flagged for a closer look

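In each of 36 groups of 5 arrays (9 members in 4 groups), the gap between the most extreme array and its neighbour was divided by the range of the group. For Dbp in MatSep P180 vessels, replicate 5 read 11.37, with the next array at 11.66, a ratio of 0.742, above the critical value of 0.71. For Usp2 in control P180 vessels, replicate 4 read 9.11, with the next array at 8.13, a ratio of 0.71 that is just above that value. Chance flags about 1 group in 20.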

How the results depend on the processing

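The age results held best: with single arrays left out, 7 to 8 members passed in control rats and 8 to 9 in MatSep rats, and the age calls of Dbp, Tef, Hlf, Nfil3, Nr1d1 and Bhlhe41 passed in both arms under each alternative run. At P10 no member passed for MatSep under any alternative, while the transcripts called among all tested went from 3 to 0 with the groups compared alone and with all transcripts, to 2 with the runs of sample numbers as a block, to 13 with a replicate block and to 485 with array weights, and spanned 0 to 153 with arrays left out. The adult MatSep count of members, from which nothing is read, depended most on the setting. It was 3, became 0 in the fit to the groups compared alone and 1 with all transcripts of the table, and spanned 0 to 6 with arrays left out, of which the first has fewer samples and the second more transcripts to adjust over. Over all transcripts that comparison had 8 calls, against 0 for the groups compared alone, 3 with all transcripts, 18 with array weights, 19 with the runs as a block and 0 to 39 with arrays left out. For the difference between the ages, array weights gave 3 members and 129 transcripts, the runs as a block 24 transcripts, a replicate block 20, and arrays left out 0 to 4 members and 0 to 52 transcripts, against none in the main setting. The cause was not tested.

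Samples of the same replicate number did not deviate together at P180 (r of −0.21 to 0.21). At P10, r was 0.09 to 0.61, above 0.1 in 4 of 5 pairs, and 8 of 10 samples correlated best with their own number, against 4 of 10 at P180. Samples of the same age and replicate number also share a run of sample numbers, and the labels tie the replicate numbers to nothing else shared. As not every pair was above 0.1, the replicate numbers were not taken to pair the samples, and at P10 this remains a hint from the data. The part of the runs in these r was not tested. With the replicate block, 1 member passed for MatSep at P180.

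Values near 0 changed sign. With arrays left out, Bhlhe40 with age in control rats spanned −0.095 to 0.023, Per1 there −0.21 to 0.30, Clock with age in MatSep rats −0.017 to 0.061, and for MatSep at P10 Hlf spanned −0.040 to 0.11, Nfil3 −0.048 to 0.079, Per1 −0.10 to 0.017, Per2 −0.14 to 0.046 and Per3 −0.12 to 0.044. At P10 Nfil3 was −0.012 after median centring and Ciart 0.026 with array weights. None of these values passed in the main setting. Nearest the dim end of the array were Hlf at P10 and Nfil3 in MatSep P180 (5.27 ± 0.23). They are the members whose values the signal limits most.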
